A study of Homo sapiens with 8 samples.

Results

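The 10 genes described here encode the core of the BCL2 family, the proteins that decide whether a cell opens its outer mitochondrial membrane and dies by apoptosis. They were taken by symbol: BCL2, MCL1, BCL2L1, BCL2L11, BAX, BAK1, BBC3, PMAIP1, BID and BIK. All 10 had a row among the 63129 rows of the expression table. Of these, 8 reached the minimum for testing, 1 RPKM on average across the 8 libraries, as did 14732 rows in all. BCL2L11 and BIK did not reach it and are given by their values. RPKM counts reads relative to transcript length and to the mapped reads of a library, so levels can be compared between genes of different length.

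Messenger RNA was sequenced from LP-1, a multiple myeloma cell line, after 6 hr of exposure. The library identifiers form 2 series, called the first and second experiment here, though the labels do not say how these were run. In the first experiment, SGC-CBP30, a bromodomain inhibitor selective for the coactivators CBP and EP300, was given at 2.5 μM and compared with the vehicle DMSO. In the second, CPI203, an inhibitor of the BET family of bromodomains, was given at 250 nM and compared with DMSO libraries of its own. Each of the 4 groups held 2 libraries, no other treatment or genetic change is named for any group, and the doses of the compounds differ. LP-1 is a single line, so p-values measure the spread between these libraries only, and that spread may be partly technical. All 10 plasma cell and myeloma markers were at or above 1 RPKM in every group, as was 1 of 6 mature B cell markers, CR2, whereas none of the 5 T cell, 5 myeloid or 5 stromal markers reached that level.

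The family works by binding among its own members. BCL2, MCL1 and BCL-XL, the long product of BCL2L1, hold back BAX and BAK1, which otherwise assemble into pores that release cytochrome c. The BH3-only proteins BIM (BCL2L11), PUMA (BBC3), NOXA (PMAIP1), BID and BIK report damage or lack of growth signals by occupying the antiapoptotic proteins or by activating the effectors. Myeloma cells, like the plasma cells they derive from, are known for their dependence on MCL1. No protein was measured here, and in RNA from whole cultures fewer cells of a type and less RNA per cell cannot be told apart.

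Start-site sequences are shown for BCL2L1, BAX, BAK1 and BID, members whose RNA was lower with SGC-CBP30, to show which common promoter motifs lie next to them. RefSeq promoter windows (GRCh38.p14, 250 bases before to 50 bases after a start site) were available for 8 of the 10 members, in 13 windows. MCL1 and BIK had no entry. Printed is the stretch before the start site that holds no annotated exon, on the strand of the gene, with capitals marking, on either strand, the core promoter element TATAAA bound by the TATA-binding protein, the GC box GGGCGG bound by SP1, the CCAAT box bound by NF-Y, or the E-box CACGTG. BCL2L1 had 2 windows, and BID had 5 that overlap in part, of which 1 each is printed. The BCL2L1 stretch, chr20:31723990-31724213 on the minus strand, held the TATA box letters TATAAA at 2 places. The stretch runs from 250 to 27 bases before the start site, and neither match lies near its end at the start site. Both are given as letters only and were not shown to be a working TATA box. The other full window of BCL2L1 held 1 GC box and no TATAAA. The BAX stretch, chr19:48954625-48954814 on the plus strand, held 2 CCAAT boxes and 2 E-boxes. The BAK1 stretch, chr6:33580294-33580526 on the minus strand, held 2 GC boxes and 1 CCAAT box. The BID stretch, chr22:17774043-17774233 on the minus strand, held 1 GC box and 1 E-box. Of the other full windows of BID, 1 held an E-box, 2 held 4 GC boxes and no E-box, and 1 held none of these motifs. BCL2 and PMAIP1, also lower with SGC-CBP30, are not printed. BCL2 had no stretch free of exons and none of these motifs in its full window, and PMAIP1 held 4 GC boxes.
BCL2L1: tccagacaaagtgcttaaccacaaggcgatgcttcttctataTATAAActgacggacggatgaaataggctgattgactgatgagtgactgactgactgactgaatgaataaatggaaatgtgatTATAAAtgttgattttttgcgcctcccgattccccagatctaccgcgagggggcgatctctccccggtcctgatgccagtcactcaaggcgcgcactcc
BAX: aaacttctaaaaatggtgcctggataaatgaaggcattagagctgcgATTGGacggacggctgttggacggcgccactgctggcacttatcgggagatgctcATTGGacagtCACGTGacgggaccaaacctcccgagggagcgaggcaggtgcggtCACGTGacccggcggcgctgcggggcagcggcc
BAK1: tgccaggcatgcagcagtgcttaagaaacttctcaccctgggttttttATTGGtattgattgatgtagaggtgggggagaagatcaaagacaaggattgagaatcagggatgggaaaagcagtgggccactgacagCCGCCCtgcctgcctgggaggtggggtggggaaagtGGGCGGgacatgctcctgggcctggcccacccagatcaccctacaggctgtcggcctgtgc
BID: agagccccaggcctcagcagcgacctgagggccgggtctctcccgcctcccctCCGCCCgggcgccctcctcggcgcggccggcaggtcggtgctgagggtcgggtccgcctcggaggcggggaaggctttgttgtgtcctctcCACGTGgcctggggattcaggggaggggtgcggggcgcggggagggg

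Over the full windows, the E-box CACGTG, a sequence bound by MYC with MAX and by USF factors, was found in 4 of the 13 member windows, those of BAX, BBC3 and 2 overlapping ones of BID, and in 7.256% of all 35116 windows. A GC box was found in 9 member windows, of 6 genes, and in 44.954% of all windows, and a CCAAT box in 4 member windows and 34.614% of all windows. The TATA box letters were found in 1 member window, of BCL2L1, and in 11.53% of all windows. The cyclic AMP response element TGACGTCA was not found in a member window and lay in 1.848% of all windows. These matches describe letters in the windows and not binding.

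In DMSO, MCL1 had the most RNA of the family. In the vehicle libraries that accompany SGC-CBP30 the levels ran from MCL1 with a mean of 157 RPKM through BAX (93.7), BID (49.9), BAK1 (49.7), BCL2L1 (33.0), BCL2 (26.4), PMAIP1 (17.4) and BBC3 (2.38) to BIK (0.367), and BCL2L11 was listed at 0. The library values of BAK1 and BID overlapped there, and all other neighbours in that order were apart. In the vehicle libraries that accompany CPI203 the means were 198 for MCL1, 66.4 for BAX, 42.4 for BAK1, 38.4 for BID, 23.8 for BCL2, 23.7 for BCL2L1, 14.3 for PMAIP1, 2.30 for BBC3, 0.403 for BIK and 0.0268 for BCL2L11, and here BCL2 and BCL2L1 overlapped. MCL1 therefore stood above the other antiapoptotic members in every DMSO library, and the BH3-only member with the highest level was BID.

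**Figure D1:**
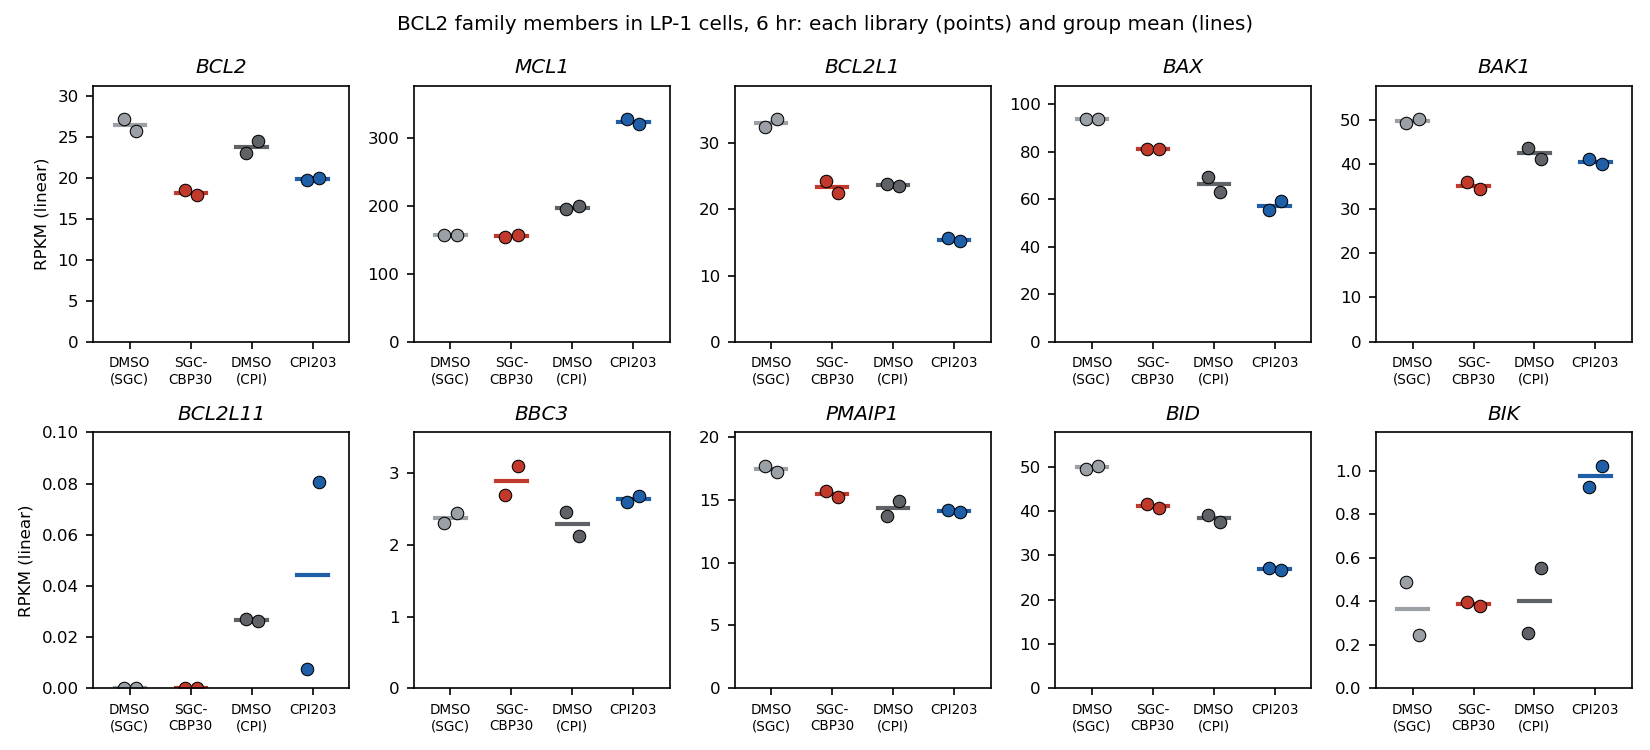
RPKM (linear axis starting at 0, scaled separately for each gene) of the 10 members in the 8 libraries, with points for libraries and lines for group means. DMSO (SGC) and DMSO (CPI) are the vehicle libraries of each experiment. MCL1 rises from 195 to 199.8 RPKM in its DMSO libraries to 321 to 327 RPKM with CPI203, and BCL2, BCL2L1, BAK1 and BID lie below their DMSO libraries with SGC-CBP30.

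SGC-CBP30 lowered 6 of the 8 members tested and raised none, with changes of less than 1.5-fold. BCL2, BAK1 and BCL2L1 fell most, to 0.689, 0.708 and 0.709 of their DMSO means, followed by BID, BAX and PMAIP1. MCL1 and BBC3 did not pass the test. Among all genes tested, 14.8% fell and 25.6% rose, where rising or falling means an adjusted p under 0.05 (limma on log2(RPKM + 0.1), Benjamini-Hochberg over 14732 genes). The median log2 fold change of the 8 members was -0.24, and that of all genes 0.07. A gene was called when it also differed by at least 1.5-fold. No member was called, whereas 7.26% of all genes were, and at an unadjusted p under 0.05 the counts were 6 members without and 0 with the minimum fold. Of the 1070 genes called, 47.8% were higher, and 32.5% and 32.3% after scaling the libraries to 1 median and after quantile normalization. The 2 treated libraries lay below both DMSO libraries for 6 of the 8 members tested and above for 1, BBC3, against 27.2% and 45.9% of all genes. An exact permutation test of 2 against 2 libraries cannot give a two-sided p under 0.333, so single values were tested through the fit across genes only.

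CPI203 moved the antiapoptotic members in opposite directions. MCL1 rose 1.64-fold while BCL2L1 fell to 0.652 and BCL2 to 0.834 of the DMSO mean, and BID and BAX fell as well. Of the 8 members tested, 1 rose and 4 fell, and 2 were called, MCL1 as higher and BCL2L1 as lower. For all genes, 31.1% rose, 33.1% fell and 27.8% were called, of which 13.4% higher and 14.4% lower. The share of members called is thus near that of all genes. The 2 treated libraries lay below both DMSO libraries for 4 of the 8 members tested and above for 2, MCL1 and BBC3, against 41.7% and 39.2% of all genes. Their median log2 fold change was -0.14, against -0.01 for all genes.

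**Figure D2:**
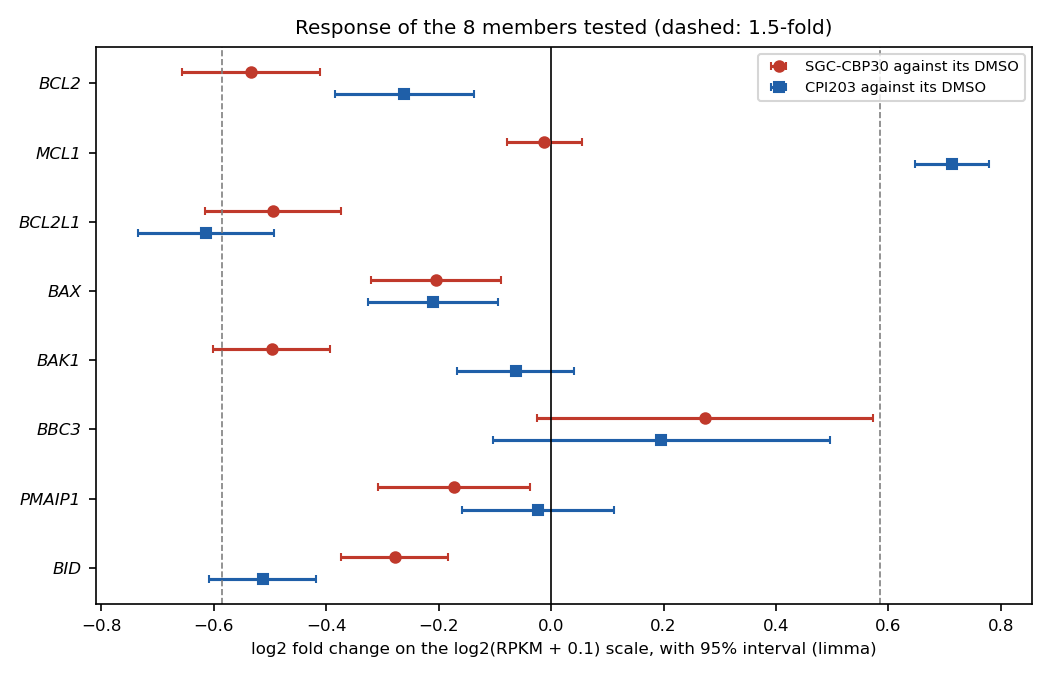
Log2 fold change (horizontal axis, log2(RPKM + 0.1) scale) of the 8 members tested, with 95% intervals from limma, for SGC-CBP30 (circles) and CPI203 (squares), each against its own 2 DMSO libraries. Dashed lines mark 1.5-fold. MCL1 lies at -0.01 with SGC-CBP30 and at 0.71 with CPI203, and BAK1 at -0.50 and -0.06.

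Among the antiapoptotic members, BCL2, the founding member and the target of venetoclax, spans chr18:60790578-60987361 in the coordinates of the table, which follow hg19. Its libraries read 27.2 and 25.7 RPKM in DMSO against 18.6 and 17.9 RPKM with SGC-CBP30. In the second experiment they read 23.1 and 24.6 RPKM in DMSO and 19.8 and 20.0 RPKM with CPI203. The treated libraries were below both DMSO libraries with each compound. With SGC-CBP30, BCL2 fell by 0.53 on the log2 scale (SE 0.0549, adjusted p = 1.01e-04, limma) and by 0.26 with CPI203 (SE 0.0549, adjusted p = 0.00209). After scaling of the libraries to the same median or quantile normalization, BCL2 passed 1.5-fold with SGC-CBP30, at -0.61 and -0.59.

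MCL1 (chr1:150547031-150552066), a short-lived antiapoptotic protein that binds BAK1, BIM and NOXA, had 157 RPKM in each DMSO library and 154 and 158 RPKM with SGC-CBP30. In the second experiment it had 195 and 199.8 RPKM in DMSO and 327 and 321 RPKM with CPI203. The SGC-CBP30 libraries lay on both sides of their DMSO libraries, and the CPI203 libraries lay well above theirs. The log2 fold change was -0.01 with SGC-CBP30 (95% interval -0.08 to 0.05, adjusted p = 0.774). With CPI203 it was 0.71 (SE 0.0296, adjusted p = 5.67e-08), a rise exceeded by 1427 of the 14732 genes tested. The value with SGC-CBP30 had no stable sign, being -0.09 after median scaling (adjusted p = 0.0363) and 0.08 after quantile normalization.

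BCL2L1 (chr20:30252254-30311792), which encodes BCL-XL and, by alternative splicing, the proapoptotic BCL-XS, read 32.4 and 33.6 RPKM in DMSO against 24.3 and 22.5 RPKM with SGC-CBP30. It read 23.8 and 23.5 RPKM in DMSO of the second experiment and 15.7 and 15.2 RPKM with CPI203. Treated libraries were lower in both experiments, and the SGC-CBP30 libraries overlapped the DMSO libraries of the other experiment. The log2 fold change was -0.49 with SGC-CBP30 (SE 0.0539, adjusted p = 1.41e-04) and -0.61 with CPI203 (SE 0.0539, adjusted p = 5.89e-06). Isoforms are summed in these gene values, so BCL-XL and BCL-XS were not separated.

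The make-up of the antiapoptotic RNA shifted with these changes. MCL1 made up 72.6% of the summed RPKM of MCL1, BCL2 and BCL2L1 in DMSO and 78.9% with SGC-CBP30, while the sum went from 217 to 197 RPKM. In the second experiment MCL1 made up 80.6% in DMSO and 90.2% with CPI203, and the sum went from 245 to 359 RPKM. The ratio of MCL1 to BCL2L1 was 4.76 in DMSO and 6.67 with SGC-CBP30, and 8.35 in DMSO and 21.0 with CPI203. BCL2 and BCL2L1 together went from 59.4 to 41.6 RPKM with SGC-CBP30 and from 47.5 to 35.3 RPKM with CPI203. These are means of 2 libraries given as description, and a share of RNA is not a share of protein.

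**Figure D3:**
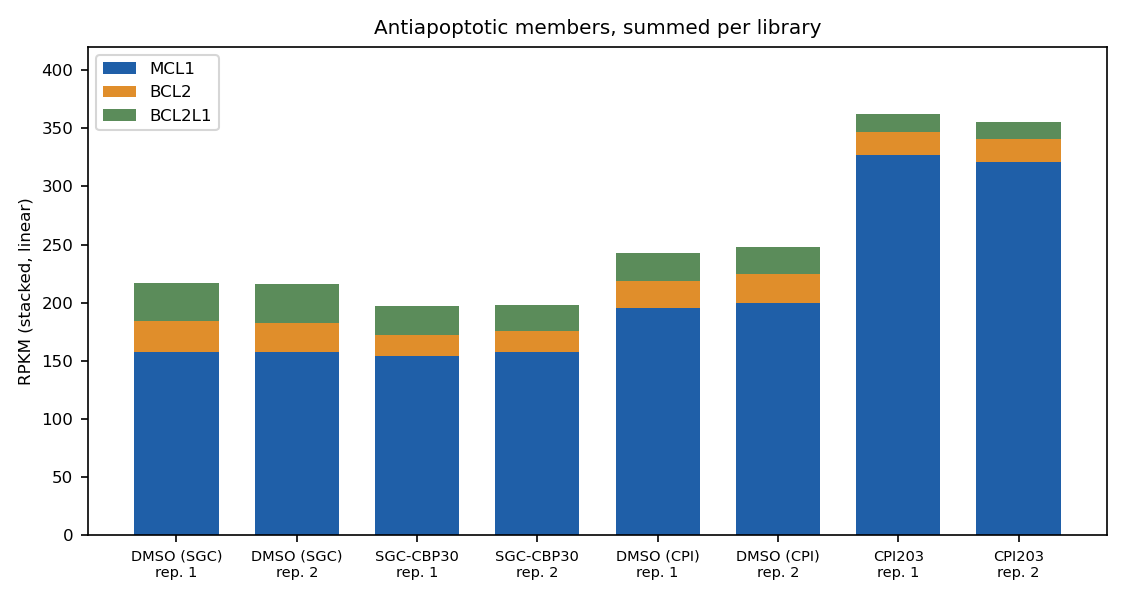
RPKM of MCL1, BCL2 and BCL2L1 stacked for each of the 8 libraries (linear axis from 0). The summed mean goes from 217 to 197 RPKM with SGC-CBP30 and from 245 to 359 RPKM with CPI203, and MCL1 is the largest part of every bar.

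Of the effectors, BAX (chr19:49458071-49465055), which moves from the cytosol to mitochondria when activated, read 93.7 RPKM in each DMSO library and 81.2 and 81.4 RPKM with SGC-CBP30. It read 69.6 and 63.1 RPKM in DMSO of the second experiment and 55.3 and 59.3 RPKM with CPI203. BAX was lower with each compound by a similar amount, -0.21 with SGC-CBP30 (SE 0.0517, adjusted p = 0.0115) and -0.21 with CPI203 (SE 0.0517, adjusted p = 0.00521). The fall with SGC-CBP30 no longer passed an adjusted p of 0.05 when any library of that experiment was left out, with values from 0.0505 without DMSO replicate 1 to 0.0561 without SGC-CBP30 replicate 2. It also did not pass without the filter on low values (adjusted p = 0.0783), without the intensity trend (0.0502) and after quantile normalization (0.0531).

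BAK1 (chr6:33540328-33548019), the effector that resides in the outer mitochondrial membrane, read 49.3 and 50.1 RPKM in DMSO against 36.0 and 34.4 RPKM with SGC-CBP30. It read 43.7 and 41.2 RPKM in DMSO of the second experiment and 41.3 and 39.9 RPKM with CPI203. The SGC-CBP30 libraries were the lowest of all 8, and the CPI203 libraries overlapped their DMSO libraries. With SGC-CBP30, BAK1 fell by 0.50 on the log2 scale (SE 0.0466, adjusted p = 5.91e-05), and the log2 fold change with CPI203 was -0.06 (95% interval -0.17 to 0.04, adjusted p = 0.263). The level of BAK1 is uncertain because a processed pseudogene, BAK1P1 (chr20:31276722-31278816), listed at a mean of 24.1 RPKM, could share its reads. BAK1P1, added after its values were seen, had log2 fold changes of -0.56 with SGC-CBP30 (adjusted p = 1.91e-04) and -0.07 with CPI203 (adjusted p = 0.393). The antiapoptotic sum was 1.51 times the sum of BAX and BAK1 in DMSO and 1.70 times with SGC-CBP30, and 2.26 times in DMSO and 3.67 times with CPI203.

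Among the BH3-only members, BID (chr22:18216905-18257536), which caspase-8 cleaves to carry death receptor signals to mitochondria, had the highest level in every library. It read 49.5 and 50.2 RPKM in DMSO against 41.6 and 40.6 RPKM with SGC-CBP30, and 39.2 and 37.6 RPKM in DMSO and 27.0 and 26.7 RPKM with CPI203. All treated libraries lay below the DMSO libraries of their experiment. BID fell by 0.28 with SGC-CBP30 (SE 0.0424, adjusted p = 9.36e-04) and by 0.51 with CPI203 (SE 0.0424, adjusted p = 3.91e-06). The share of BID in the summed RPKM of the 5 BH3-only members was 71.2% in DMSO and 68.7% with SGC-CBP30, and 69.3% in DMSO and 60.2% with CPI203.

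PMAIP1 (chr18:57567179-57571538), which encodes NOXA, a partner of MCL1 that promotes its degradation, read 17.7 and 17.2 RPKM in DMSO against 15.7 and 15.2 RPKM with SGC-CBP30. It read 13.7 and 14.9 RPKM in DMSO of the second experiment and 14.2 and 14.0 RPKM with CPI203. SGC-CBP30 libraries were below their DMSO libraries and CPI203 libraries lay between theirs. The log2 fold change was -0.17 with SGC-CBP30 (SE 0.0601, adjusted p = 0.0444) and -0.02 with CPI203 (95% interval -0.16 to 0.11, adjusted p = 0.757). The fall with SGC-CBP30 no longer passed an adjusted p of 0.05 without any 1 library of that experiment, without either CPI203 library, with the replicate number as a block (adjusted p = 0.0884) and without the filter on low values (0.0696) and without the intensity trend (0.0531), and the adjusted p reached 0.208 without SGC-CBP30 replicate 2.

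BBC3 (chr19:47724080-47736023), which encodes PUMA, was low, at 2.31 and 2.44 RPKM in DMSO, 2.70 and 3.11 with SGC-CBP30, 2.46 and 2.13 RPKM in DMSO of the second experiment, and 2.60 and 2.68 RPKM with CPI203. Treated libraries were above their DMSO libraries in each experiment. The log2 fold changes, 0.27 with SGC-CBP30 (95% interval -0.03 to 0.57, adjusted p = 0.131) and 0.20 with CPI203 (-0.10 to 0.50, adjusted p = 0.224), did not pass the test.

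BCL2L11, which encodes BIM, was listed at 0 in all 4 libraries of the first experiment. In the second it read 0.0272 and 0.0264 RPKM in DMSO and 0.00754 and 0.0807 RPKM with CPI203. At the depth estimated for these libraries, the highest of these values is 2.41 reads per kilobase of transcript. A fall in BCL2L11 could therefore not be seen, and no library showed a level above 0.0807 RPKM. BIK, a BH3-only protein of the endoplasmic reticulum, read 0.488 and 0.246 RPKM in DMSO, 0.398 and 0.381 with SGC-CBP30, 0.254 and 0.553 RPKM in DMSO of the second experiment, and 0.926 and 1.02 RPKM with CPI203. The CPI203 libraries were the highest of the 8. In a fit without the filter on low values, the log2 fold change of BIK with CPI203 was 1.16 (SE 0.390, adjusted p = 0.0867), which did not pass the threshold.

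Responses to the compounds were set against each other as the difference of the log2 fold changes, SGC-CBP30 minus CPI203, at the single dose of each. The difference passed an adjusted p of 0.05 for 4 of 8 members and for 50.3% of all genes. It was negative for 3 of these members and positive for 1, against 21% and 29.3% of all genes. MCL1 differed most, by -0.73 (SE 0.0419, adjusted p = 1.50e-06). BAK1 differed by -0.43 (SE 0.0659, adjusted p = 4.58e-04) and BCL2 by -0.27 (SE 0.0776, adjusted p = 0.0153), both lower with SGC-CBP30, while BID differed by 0.23 (SE 0.0600, adjusted p = 0.00906) and was lower with CPI203. The difference for BCL2 was lost without DMSO replicate 1 of the SGC-CBP30 experiment (adjusted p = 0.0585) and without SGC-CBP30 replicate 2 (adjusted p = 0.0576). For BCL2L1 the difference was 0.12 (95% interval -0.05 to 0.29, adjusted p = 0.223), for PMAIP1 -0.15 (-0.34 to 0.04, 0.170) and for BBC3 0.08 (-0.35 to 0.50, 0.756), and for BAX it was 0.00 (-0.16 to 0.17, 0.963). The doses differ and the compounds belong to different series of library identifiers, so compound, dose and series cannot be told apart in these differences.

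Members of the family also differed between the DMSO libraries of the experiments, which the labels tell apart only by the series of library identifiers. Relative to the SGC-CBP30 experiment, MCL1 was higher in DMSO of the CPI203 experiment by 0.33 on the log2 scale (adjusted p = 3.70e-05). BAX was lower by 0.50 (adjusted p = 8.78e-05), BCL2L1 by 0.48 (adjusted p = 1.49e-04), BID by 0.38 (adjusted p = 1.46e-04), PMAIP1 by 0.28 (adjusted p = 0.00467) and BAK1 by 0.23 (adjusted p = 0.00389). Thus 1 member was higher and 5 were lower, against 20.3% and 21.5% of all genes, and no member was called at 1.5-fold, against 7.84% of all genes. For MCL1, BAX, BID and PMAIP1 these differences were larger in size than the changes with SGC-CBP30. Against all 4 DMSO libraries, the SGC-CBP30 value was 0.04 for BAX (adjusted p = 0.877), -0.26 for BCL2L1 (0.293), -0.09 for BID (0.651) and -0.03 for PMAIP1 (0.867), while BCL2 at -0.46 (0.00943) and BAK1 at -0.38 (0.0270) still fell. With CPI203, MCL1 was then at 0.88 (adjusted p = 2.70e-04), BCL2L1 at -0.85 (0.00220) and BID at -0.70 (0.00187), each past 1.5-fold. The T cell markers summed to between 0.956 and 1.04 RPKM in DMSO of the CPI203 experiment and to between 0.0365 and 0.0688 RPKM in DMSO of the other, and their part in the differences was not tested.

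**Figure D4:**
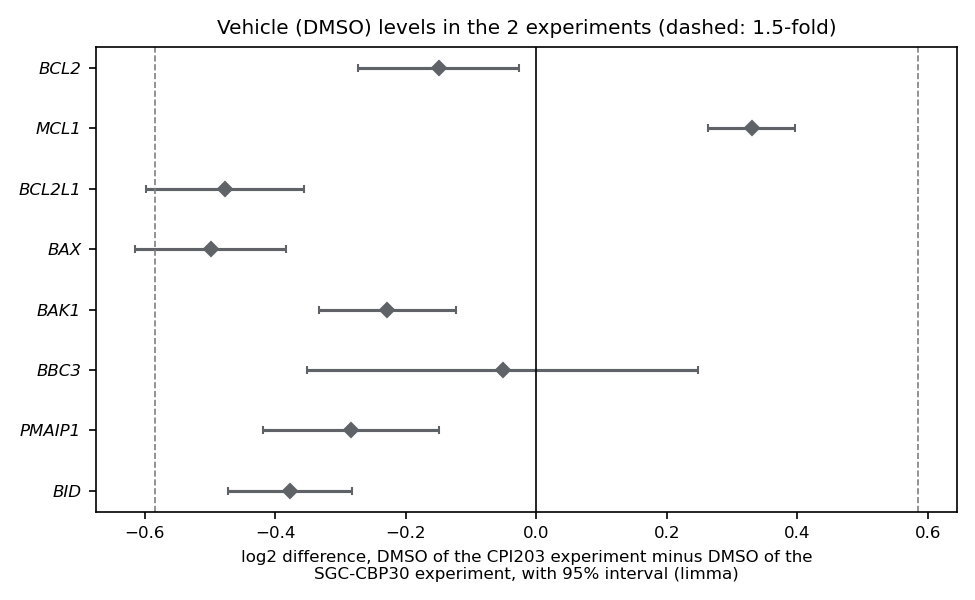
Log2 difference (horizontal axis) between the DMSO libraries of both experiments (CPI203 minus SGC-CBP30) for the 8 members tested, with 95% intervals from limma and dashed lines at 1.5-fold. MCL1 lies at 0.33, and BAX, BCL2L1 and BID lie between -0.50 and -0.38.

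The genes whose pattern over the 8 libraries was most like that of the member that moved most with each compound were found by the root mean square difference of log2 values centred on the DMSO libraries of each experiment. For BCL2 with SGC-CBP30 these were LRRFIP1 (0.0219), VPS37B (0.0416) and KIAA1217 (0.0442). For MCL1 with CPI203 they were CERK (0.0199), ENSG00000218418 (0.0255) and PCNX (0.0332). CERK, the ceramide kinase, was at -0.02 on the log2 scale with SGC-CBP30 (adjusted p = 0.804) and at 0.73 with CPI203 (adjusted p = 1.29e-06). CERK was picked for its likeness to MCL1 in these same libraries, so its values follow from that choice and are description only.

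Beyond the 10 members, 16 further genes of the family or with BH3-like regions were listed, and 8 were tested. With SGC-CBP30, 4 of them rose and none fell, where 25.6% of all genes rose and 14.8% fell. BNIP3, a mitochondrial protein induced by hypoxia that recruits autophagy, rose by 1.91 (SE 0.0574, adjusted p = 1.16e-07), from 9.17 and 9.82 RPKM to 35.4 and 36.3 RPKM, and was the only gene of this list called. The share of all genes called with SGC-CBP30 was 7.26%. With CPI203, BNIP3 read 16.9 and 17.5 RPKM against 17.2 and 16.6 RPKM in DMSO, so that its groups overlapped, and the responses differed by 1.88 (adjusted p = 3.43e-07). BNIP3 was also among the genes that were higher in DMSO of the CPI203 experiment than in DMSO of the other (adjusted p = 6.85e-06). CPI203 raised 4 of the 8 and lowered 2, where 31.1% of all genes rose and 33.1% fell. BNIP1, a vesicle fusion protein of the endoplasmic reticulum, fell by 1.22 (SE 0.0623, adjusted p = 1.92e-07), from 15.6 and 14.4 RPKM to 6.44 and 6.28 RPKM, and BNIP3L, a mitophagy receptor related to BNIP3, rose by 0.80 (SE 0.0449, adjusted p = 3.51e-07). The other antiapoptotic genes BCL2A1, BCL2L2 and BCL2L10 and the effector-like BOK stayed under 1 RPKM in every library. BECN1 was not low, at 32.4 to 44.5 RPKM in the libraries with a value. It was not tested because DMSO replicate 1 of the first experiment and DMSO replicate 2 of the second had no value.

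Downstream of the mitochondrial step, all 15 listed genes were tested. SGC-CBP30 raised 4 and lowered 5, beside 25.6% and 14.8% of all genes, and CPI203 raised 6 and lowered 5, beside 31.1% and 33.1%. APAF1, the scaffold of the apoptosome, went from 2.76 and 2.33 RPKM to 4.12 and 4.45 RPKM with SGC-CBP30, a rise of 0.73 (adjusted p = 0.00114). It went from 2.83 and 3.13 RPKM to 8.87 and 8.16 RPKM with CPI203, a rise of 1.48 (adjusted p = 2.73e-06), and the responses differed by -0.75 (adjusted p = 0.00400). CASP9, the caspase that APAF1 activates, rose by 0.74 (adjusted p = 8.38e-04) and 0.86 (adjusted p = 8.00e-05), respectively. BIRC3, an inhibitor of apoptosis and NF-kappaB target, fell by 0.83 with SGC-CBP30 (adjusted p = 3.01e-05). With CPI203, BIRC2, its close relative, rose by 0.81 (adjusted p = 3.80e-06) and HTRA2, a mitochondrial protease released with cytochrome c, fell by 0.92 (adjusted p = 1.19e-07). Both moved the same way with SGC-CBP30 without reaching 1.5-fold, BIRC2 by 0.51 (adjusted p = 3.75e-04) and HTRA2 by -0.50 (adjusted p = 3.33e-05).

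**Figure D5:**
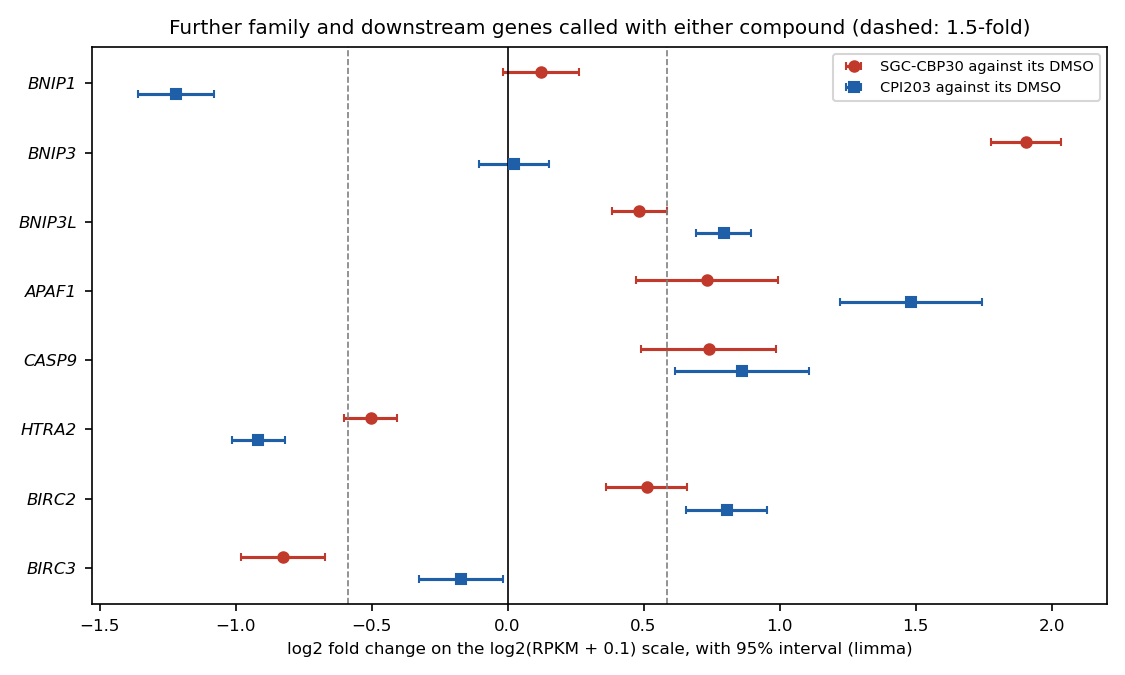
Log2 fold change (horizontal axis) of the 8 further family and downstream genes called with either compound, with 95% intervals from limma, for SGC-CBP30 (circles) and CPI203 (squares) and dashed lines at 1.5-fold. BNIP3 lies at 1.91 with SGC-CBP30 only, BNIP1 at -1.22 with CPI203 only, and APAF1 and CASP9 lie to the right of 0 with both compounds.

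Another list held 11 partners of the family, most of them proteins of the outer membrane or of mitochondrial fission and fusion. None of these partners was called with either compound, where 7.26% of all genes were called with SGC-CBP30 and 27.8% with CPI203. SGC-CBP30 raised 3 and lowered 1, beside 25.6% and 14.8% of all genes, and CPI203 raised 2 and lowered 4, beside 31.1% and 33.1%. Of 10 ubiquitin ligases and deubiquitinases that act on MCL1 or other members, 9 were tested, and SGC-CBP30 raised 2 of them and lowered none. CPI203 raised 5 and lowered 3, against the same shares of all genes. USP9X, a deubiquitinase that stabilises MCL1, rose by 0.70 (adjusted p = 1.53e-05), BTRC, a subunit of a ligase for MCL1, by 0.75 (adjusted p = 3.27e-05) and MARCH5, a mitochondrial ligase, by 0.86 (adjusted p = 1.71e-06), and these 3 were the genes of the list called with CPI203. By the rule for calls, 13.4% of all genes were called higher with CPI203 and 14.4% lower. Enzymes of opposite action on the MCL1 protein rose in the same comparison as MCL1 RNA.

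Of 15 transcription factors known to control genes of the family, 12 were tested. SGC-CBP30 raised 2 and lowered 4, set against 25.6% and 14.8% of all genes, and CPI203 raised 6 and lowered 5, set against 31.1% and 33.1%. MYB, an activator of BCL2, fell with each compound, by 0.92 with SGC-CBP30 (adjusted p = 1.91e-06) and 1.36 with CPI203 (adjusted p = 2.84e-08). CPI203 also raised STAT3, an activator of MCL1, by 0.77 (adjusted p = 2.24e-06), DDIT3, a stress factor that represses BCL2, by 0.68 (adjusted p = 1.74e-05) and FOXO4 by 0.59 (adjusted p = 9.10e-05). With SGC-CBP30, STAT3 rose as well, at 0.19 (adjusted p = 0.0276, limma), and so did DDIT3, at 0.37 (adjusted p = 0.00301). FOXO4 fell with SGC-CBP30, at -0.25 (adjusted p = 0.0257), and none of these 3 changes reached 1.5-fold.

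Depth was estimated from the spacing of low values at 26000000 to 50100000 reads per library. The SGC-CBP30 libraries were 1.41 times as deep as their DMSO libraries, and the ratio for CPI203 was 1.01. Replicates of a group had a log2 SD of 0.0909 to 0.115 over the 8298 genes with at least 10 RPKM. The plasma cell markers summed to 1341 to 1396 RPKM in DMSO against 975 to 1008 RPKM with SGC-CBP30, and to 1426 to 1445 RPKM in DMSO and 872 to 884 RPKM with CPI203, and the part of this difference in the members' values was not tested.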

How the data were processed

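RNA from 8 LP-1 libraries, 2 for each of 4 groups, was sequenced, and the authors deposited RPKM values per gene, that is, read counts normalised to gene length and mapped reads. The submitters' processing notes name TopHat 1.4.1, Cufflinks and hg19, with no role or order. Groups were taken from the sample titles. The 24 other columns of the table were not used. No counts were used, and 60.6% to 72.7% of low values lay within 0.1 of a whole read, so reads were not recovered and no count test was run.

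Values were analysed as log2(RPKM + 0.1) in limma 3.58.1 (R 4.3.3) with 4 group means, all 8 libraries, an intensity trend and Benjamini-Hochberg adjustment, after removal of 27 rows with a missing value and of genes with a mean under 1 RPKM. Contrasts were each compound against its own DMSO libraries, the difference of these, and DMSO against DMSO. Fold changes on this scale understate those of low genes. A gene was called at an adjusted p under 0.05 and at least 1.5-fold, and the difference between compounds at an adjusted p under 0.05. Named were all 10 members, genes of the pathway lists that were called, some that were not tested, and the 3 genes most like the leading member. Single values of some listed genes are not reported here. Members and lists were chosen with earlier results of these data known. The fit was tested on simulated data. Alternatives were other pseudocounts, filters, scalings, controls, thresholds, a replicate block and leaving out each library. Promoter windows are RefSeq's on GRCh38.p14, with exons from GENCODE, and were not mixed with the hg19 coordinates of the table.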

Additional observations from a re-analysis of the deposited data

Results flagged for a closer look

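The response of 4 members differed between the compounds by a test of the difference itself, SGC-CBP30 minus CPI203, in limma with Benjamini-Hochberg adjustment over all genes. The differences of the log2 fold changes were -0.27 for BCL2 (adjusted p = 0.0153), -0.73 for MCL1 (adjusted p = 1.50e-06), -0.43 for BAK1 (adjusted p = 4.58e-04) and 0.23 for BID (adjusted p = 0.00906). The same test passed for 50.3% of all genes. For MCL1 both CPI203 libraries lay above their DMSO libraries and the SGC-CBP30 libraries overlapped theirs. For BAK1 both SGC-CBP30 libraries were below their DMSO libraries and the CPI203 libraries overlapped theirs. BCL2 and BID were lower with each compound, and to different extents.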

How the results depend on the processing

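The calls of MCL1 and BCL2L1 with CPI203 kept their direction and their side of the threshold under every alternative run except a 2-fold minimum. Over these alternatives the log2 fold change of MCL1 ranged from 0.67 to 0.88 and that of BCL2L1 from -0.85 to -0.59. With SGC-CBP30, where neither was called, MCL1 changed sign after quantile normalization (0.08) and without SGC-CBP30 replicate 1 (0.0048). Members called with SGC-CBP30 numbered 0, and 1 (BCL2) after median scaling and 1 after quantile normalization, and 6 with no minimum fold. With CPI203, 2 became 5 with no minimum fold, 3 (with BID) against all 4 DMSO libraries and 0 at 2-fold. Members that differed between compounds went from 4 to 1 at an adjusted p under 0.01 and 1.5-fold and 0 at 2-fold, and were 3 to 4 when a library was left out. DMSO against DMSO went from 0 to 6 with no minimum fold. Genes called with SGC-CBP30 went from 1070 to 667 with a pseudocount of 1, 505 with a mean of at least 5 RPKM, 516 against all 4 DMSO libraries, 5945 with no minimum fold and 278 at 2-fold. With CPI203, 4095 became 2590 with at least 5 RPKM, 9459 with no minimum fold and 1558 at 2-fold. Genes that differed between compounds went from 7416 to 3133 at an adjusted p under 0.01 and 1.5-fold and 1427 at 2-fold. In DMSO against DMSO, 1155 became 518 with at least 5 RPKM, 6150 with no minimum fold and 423 at 2-fold. Stricter or absent thresholds and filters change counts by construction, and for the scalings the cause was not tested.

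Median scaling moved the median log2 fold change with SGC-CBP30 by -0.08 and quantile normalization by -0.04. Of genes that differed between compounds, 58.2% were higher with SGC-CBP30, and 49.0% and 51.6% after these scalings. The study describes its DMSO controls as paired, but the labels do not say that the replicate number marks a pair, so the fit had no block. Deviations of same-numbered libraries correlated at -0.17 in the SGC-CBP30 experiment and -0.04 in the CPI203 experiment. With a replicate block, 0 members were called with SGC-CBP30, 2 with CPI203 and 4 between compounds, and 1057, 4120 and 6729 genes. Crossing the numbers, added after seeing the data, gave 1085, 4115 and 7731 genes. BCL2L11, at most 0.0807 RPKM in any library, and BIK, at most 1.02 RPKM, were too low to be tested. Having 2 libraries a group limits every test.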
